A study of Mus musculus with 34 samples.

Results

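The T and NK cell genes followed here were 46 mouse genes that encode the T cell receptor complex, its coreceptors and signalling proteins, the cytotoxic machinery, NK receptors, cytokine receptors, lineage transcription factors and homing molecules. They were taken by symbol from the deposited count table of 24223 rows, and all 46 were present once. The table held 28 libraries of poly-A RNA from tracheal brushings, each from a separate mouse lacking Gprc5a (Gprc5a-/-), a retinoic acid-inducible receptor of airway epithelium whose loss predisposes mice to lung tumours. A library is called by its group and its animal number, such as t0 375. The baseline group (n = 6) had received no carcinogen. The other mice received NNK, a carcinogenic nitrosamine of tobacco, by intraperitoneal injection (50 mg/kg per dose, 3 doses weekly over 8 weeks) and were brushed at the end of exposure (t0, n = 6) or 2, 4 or 6 months later (t2, n = 5; t4, n = 6; t6, n = 5). The baseline mice were the only unexposed Gprc5a-/- mice used here. Age and time since the last dose therefore cannot be told apart from NNK, and the labels give an age of 6 to 8 weeks for every group. Another 6 unexposed wild-type (WT) baseline libraries were deposited separately.

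A T cell recognises antigen through a receptor that signals through the Cd3 chains and Cd247, which the kinase Lck phosphorylates and from which Zap70 and Lat carry the signal on. NK cells carry germline-encoded receptors such as Ncr1 and Klrk1, and kill with the perforin and granzymes that cytotoxic T cells also use. In the airway both kinds of cell lie in and below the epithelium, where Itgae and Cd69 mark resident T cells, whereas Rag1, Rag2 and Dntt, which rearrange and diversify the receptor genes, are made in the immature T cells of the thymus and in B cell precursors.

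The libraries of the Gprc5a-/- table held 15625280 to 37609820 counts each, and levels are given in CPM, counts relative to a library size scaled by the trimmed mean of M values (TMM). Gprc5a itself stood at 0.115 to 7.71 CPM in the 28 libraries and at 140.6 to 372.6 CPM in the WT libraries. The summed level of 7 airway epithelial genes was between 3797 and 9981 CPM in every Gprc5a-/- library. Against this the summed level of the 46 T and NK genes was small, and 14 of them were too low to test (below 1 CPM in all but 4 or fewer libraries). In a brushing, fewer cells of a type and less RNA per cell cannot be told apart.

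The summed level of the 46 genes was 51.4 ± 27.2 CPM (mean ± SD) in the baseline mice and 199 ± 229 in the t0 mice. Later it was 45.8 ± 10.9 CPM 2 months after exposure, 73.4 ± 27.4 after 4 months and 67.9 ± 18.1 after 6 months. The t0 sums were 65.2 CPM in t0 367, 71.0 in t0 359, 86.5 in t0 374, 108.4 in t0 357, 209.9 in t0 332 and 654.6 in t0 375. One library thus held 54.8% of the t0 total, and without it the t0 mean was 108.2 ± 59.3 CPM (n = 5). The baseline sums ran from 26.8 to 91.8 CPM with a median of 41.2, so the t0 and baseline libraries overlapped, baseline 344 and baseline 345 lying among the lower t0 libraries. The t2 sums were 53.7, 38.85, 61.17, 37.97 and 37.38 CPM, the t4 sums ran from 44.3 to 108.9 with a median of 68.6, and the t6 sums were 52.1, 85.9, 46.1, 72.3 and 83.3. All t2 libraries lay below all t0 libraries, whereas t4 and t6 overlapped both t0 and baseline. The plot of summed levels shows t0 375 far above the rest of its group.

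**Figure D1:**
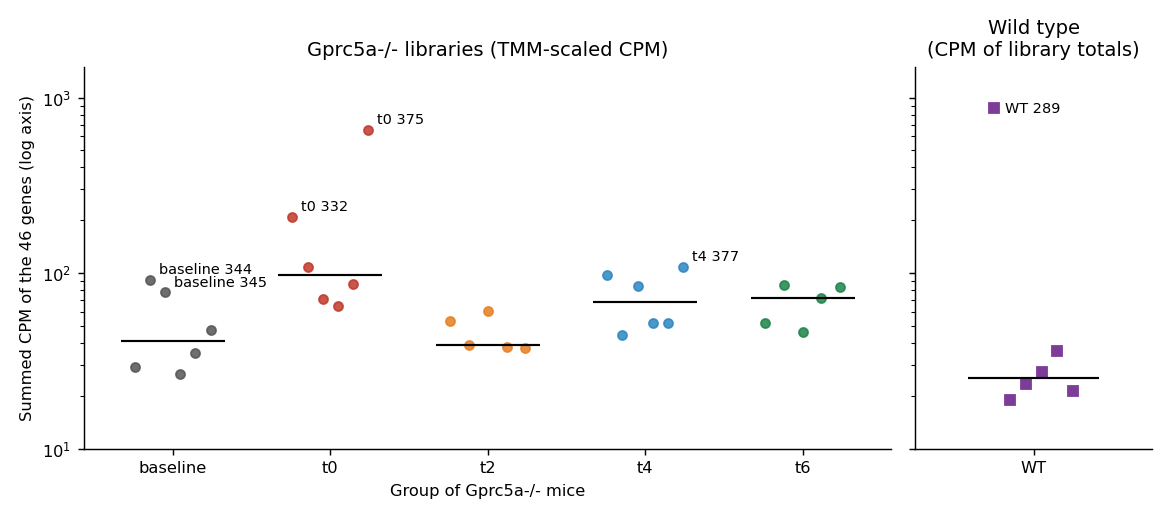
Summed CPM of the 46 T and NK cell genes in each library (log axis), by group, with the group median as a bar. The left panel holds the 28 Gprc5a-/- libraries with TMM-scaled CPM and the right panel the 6 wild-type libraries with CPM of library totals, so levels across the panels rest on separate processing. The libraries t0 375 (654.6 CPM) and WT 289 (871.4 CPM) lie far above the others of their groups.

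Because t0 375 and a few other libraries stood apart, the main results are given with and without t0 375, and the counts also without others. In t0 375 the level was the highest of the 28 libraries for 40 of the 46 genes, and the median ratio to the median of the other t0 libraries was 8.71 over the 44 genes with a ratio. The ratio differed widely between genes. It was 44.3 for Cd8b1, 27.6 for Nkg7 and 19.4 for Cd8a but 3.53 for Cd2, 2.45 for Foxp3 and 0.795 for Klrb1c. The same library held 1043 counts of Rag1, 53 of Rag2, 234 of Dntt and 409 of the thymic homing receptor Ccr9, against 0 to 4, 0 to 2, 0 to 11 and 8 to 43 in the other t0 libraries. Summed over 8 thymocyte markers the level was 84.0 CPM in t0 375 and 3.22 to 6.75 CPM in the other t0 libraries. Rag1 counts above 100 were found in 4 further libraries, with 274 in baseline 345, 228 in t4 377, 155 in t6 366 and 133 in t4 340, and these were also the highest libraries of their groups for Cd4, apart from t4 340, which came second to t4 377. The part of thymic or precursor RNA in the T and NK levels was not tested, and counts of called genes without these 5 libraries are given below.

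In CPM, baseline 344 was the highest of all 28 libraries for Gzma (9.47 CPM, 259 counts), Gzmb (133 counts) and Trat1 (38 counts). For Gzma, t2 339 lay close to it, with 9.0 CPM and 278 counts. Baseline 344 had Rag1, Rag2 and Dntt at 0, and its summed cytotoxic effectors reached 20.3 CPM where the other baseline libraries had 1.43 to 3.53. The library t2 339 had 31 of the 46 genes at 0, against 0 to 12 in the other libraries, and 90.6% of its T and NK counts lay in Gzma, Il2rb, Itgae, Ptprcap and Icos. Over all genes it had 14475 above 0, against 16892 to 19082 in the other Gprc5a-/- libraries. Its zeros were thus not confined to the T and NK genes. The heat map of members by library shows these patterns.

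**Figure D2:**
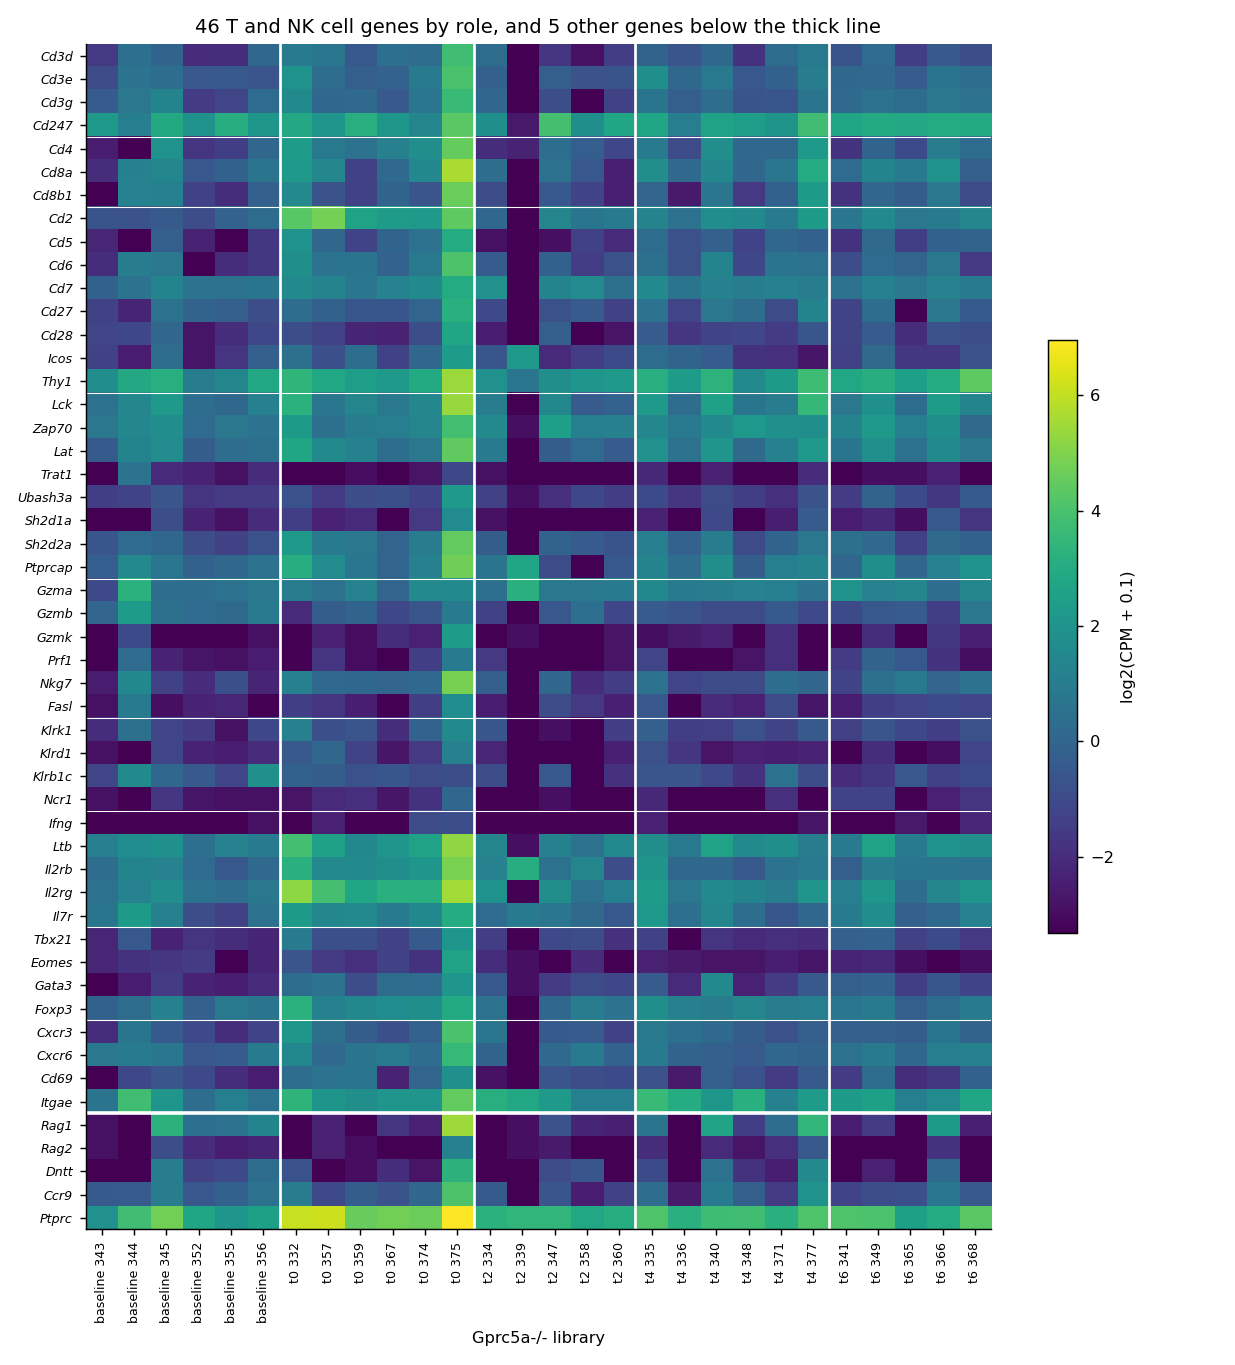
log2(CPM + 0.1) of the 46 T and NK cell genes, grouped by role between thin white lines, in each Gprc5a-/- library, with the thymocyte genes Rag1, Rag2, Dntt and Ccr9 and the leukocyte gene Ptprc below the thick line. The t0 375 column is bright for nearly every gene, the t2 339 column is dark for 31 of them, and Cd2, Il2rg and Ptprc are bright in all 6 t0 columns.

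At the end of NNK exposure, 20 of the 32 tested T and NK genes rose against baseline and none fell in edgeR's quasi-likelihood test with Benjamini-Hochberg adjustment over all 14847 genes tested. Over all genes, 45.5% were called in either direction, 23.3% higher and 22.3% lower. The median log2 fold change was 2.35 for the 32 genes and 0.02 for all genes tested. Of these 32, Cd3d, Cd5, Icos, Gata3 and Cd69 reached 1 CPM in fewer than 5 libraries outside t0, so that these 5 entered the test through t0 itself and their values at t0 are a description. All of them but Icos are among the 20 genes that rose. Without t0 375, 7 of 31 tested genes rose and 1 fell, and the median was 0.96, while 41.9% of all genes were still called, 21.2% of all genes higher, which is near the share of the members. The 7 that rose in both fits were Cd2, Sh2d2a, Ltb, Il2rb, Il2rg, Gata3 and Foxp3. Cd5 no longer passed the filter without that library, and the calls of the other 12 genes were lost, with log2 fold changes of 0.48 to 1.98 and adjusted p between 0.051 and 0.43. Without the 5 libraries with over 100 Rag1 counts, 8 genes rose and none fell: Cd4, Cd2, Sh2d2a, Ltb, Il2rb, Il2rg, Foxp3 and Cd69. Over all genes 37% were then called. Cd5 and Gata3 were not tested without those libraries, since too few of the others reached 1 CPM. Without baseline 344, t0 375 and t2 339 together, 14 genes rose and Gzmb fell, where 47.9% of all genes were called. Those 14 were the 7 above with Cd3e, Cd6, Nkg7, Il7r, Cxcr3, Cd69 and Itgae.

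**Figure D3:**
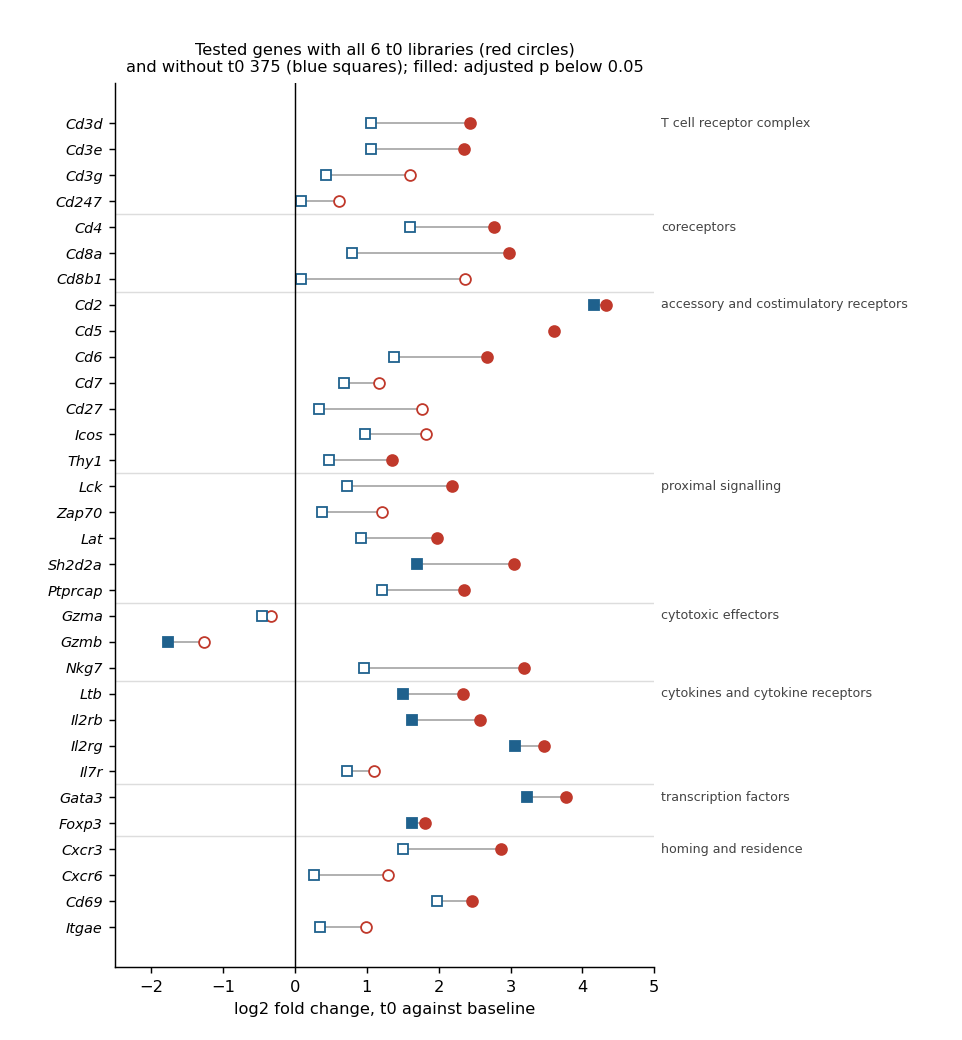
log2 fold change of t0 against baseline for the 32 tested T and NK cell genes by role, with all 6 t0 libraries (red circles) and without t0 375 (blue squares); filled symbols have an adjusted p below 0.05. Cd2, Il2rg, Gata3 and Foxp3 moved little, whereas Cd8b1 moved from 2.37 to 0.08, and Cd5 has no square because it was not tested without that library.

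An adhesion receptor, a lymphoid cytokine and 2 cytokine receptor chains rose with and without t0 375. Cd2, an adhesion and costimulatory receptor of T and NK cells that mouse B cells also carry, ranged from 0.437 to 1.13 CPM (median 0.6) at baseline and from 4.64 to 27.5 CPM (median 12.6) at t0. Its 6 t0 libraries all lay above the 6 baseline libraries, and the highest was t0 357, not t0 375. The log2 fold change was 4.33 ± 0.63 (SE), adjusted p = 3.45e-06, and 4.17 (adjusted p = 1.20e-05) without t0 375. Il2rg, the common gamma chain shared by the receptors for IL-2, IL-7 and IL-15, ranged from 1.16 to 3.19 CPM (median 1.5) at baseline and from 6.56 to 45.7 CPM (median 12.1) at t0. Again the groups did not overlap, with t0 375 and t0 332 highest. Its log2 fold change was 3.47 ± 0.63 (SE), adjusted p = 6.54e-05, and 3.06 (adjusted p = 3.09e-04) without t0 375. Il2rb, the beta chain of the IL-2 and IL-15 receptors, ranged from 0.618 to 2.38 CPM (median 1.14) at baseline and from 2.79 to 29.2 CPM (median 3.7) at t0, and its lowest t0 library was above its highest baseline library. Its fitted log2 difference was 2.58 ± 0.63 (SE), adjusted p = 0.00154, and 1.63 (adjusted p = 0.0193) without t0 375. Ltb, a membrane cytokine of lymphocytes that drives lymphoid tissue organisation, had 1.26 to 3.5 CPM (median 2.15) at baseline and 2.65 to 37.5 CPM (median 5.84) at t0. Here t0 359 lay within the baseline range and the other 5 t0 libraries above it. It rose by 2.34 ± 0.62 (SE), adjusted p = 0.00285, and by 1.51 (adjusted p = 0.0306) without t0 375. Il7r, the IL-7 receptor alpha chain, had a log2 fold change of 1.10 ± 0.55 (SE), adjusted p = 0.105 and did not pass. Ifng, the interferon of type 1 cells, was not tested: it had 33 counts over the 28 libraries and stood at 0 in 20 of them, with 11 counts in t0 375.

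Of the 4 transcription factors, Gata3 and Foxp3 rose and Tbx21 and Eomes were too low to test. Gata3, which directs T helper 2 cells and is also used in other tissues, ranged from 0 to 0.243 CPM (median 0.0872) at baseline and from 0.441 to 3.96 CPM (median 1.14) at t0, with no overlap, and t0 375 was the highest. On the log2 scale the difference was 3.78 ± 0.79 (SE), adjusted p = 3.16e-04, and 3.23 (adjusted p = 0.00148) without t0 375, for a gene that entered the test through t0. Foxp3, the factor of regulatory T cells, ranged from 0.776 to 2.18 CPM (median 1.29) at baseline and from 2.17 to 9.48 CPM (median 3.26) at t0. The highest library was t0 332, and t0 357 (2.17 CPM) lay just under baseline 345 (2.18 CPM). Foxp3 rose by 1.81 ± 0.54 (SE), adjusted p = 0.00722, and by 1.63 (adjusted p = 0.0208) without t0 375, but its gene overlaps Ccdc22 and Ppp1r3fos in the table, whose reads cannot be told apart here. Counts of Tbx21 and Eomes, the T-box factors of type 1 and cytotoxic cells, were 355 and 225 over the 28 libraries, of which t0 375 held 99 and 144. Cd2, Il2rb, Il2rg and Gata3, all among the 32 tested, were the 4 of 46 genes whose t0 and baseline groups did not overlap. Over all genes tested, 13.1% had every t0 library above every baseline library, a share near that of the 4 among the 32. None of the 46 had every t0 library below baseline, as 12.7% of all genes had.

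The genes of the T cell receptor complex that rose lost their calls without t0 375. Cd3e, a signalling chain of the receptor, ranged from 0.425 to 1.39 CPM (median 0.6) at baseline and from 0.772 to 16.1 CPM (median 1.46) at t0. The second highest t0 library was t0 332 with 3.83 CPM, t0 374 stood just above the baseline range and the 3 others within it. The log2 fold change was 2.35 ± 0.70 (SE), adjusted p = 0.00778, and 1.06 (adjusted p = 0.154) without t0 375. Cd3d, which lies next to Cd3g and Cd3e on chromosome 9, had 0.146 to 1.24 CPM (median 0.567) at baseline, while 5 t0 libraries lay between 0.607 and 1.82 CPM and t0 375 at 13.7. Of those 5, t0 359 and t0 374 lay within the baseline range. Cd3d, which entered the test through t0, rose by 2.44 ± 0.82 (SE), adjusted p = 0.0161, and had 1.06 (adjusted p = 0.244) without that library. Cd3g (1.60 ± 0.75 (SE), adjusted p = 0.0807) and Cd247 (0.62 ± 0.60 (SE), adjusted p = 0.417) did not pass in either fit.

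The coreceptors Cd4 and Cd8a, which bind class II and class I molecules and bring Lck to the receptor, rose with all libraries, whereas Cd8b1 did not pass. Cd4 ranged from 0 to 3.75 CPM (median 0.232) at baseline, where baseline 345 alone exceeded 1 CPM, and from 1.38 to 22.6 CPM (median 2.69) at t0. Leaving out t0 375 gave 1.61 (adjusted p = 0.139) in place of 2.77 ± 0.93 (SE), adjusted p = 0.0171. Without the 5 libraries with over 100 Rag1 counts, Cd4 was again called, at 3.14 (adjusted p = 0.00501), the 5 t0 libraries then lying at 1.38 to 4.97 CPM and the 5 baseline libraries at 0 to 0.946. Cd8a ranged from 0.155 to 2.53 CPM (median 1.13) at baseline and from 0.303 to 50.4 CPM (median 2.65) at t0. Apart from t0 375 the t0 values of Cd8a (0.303 to 4.56 CPM) overlapped the baseline values widely. Its log2 fold change was 2.98 ± 0.97 (SE), adjusted p = 0.0135, and 0.79 (adjusted p = 0.433) without t0 375. For Cd8b1 the value was 2.37 ± 1.07 (SE), adjusted p = 0.0725, and 0.08 (adjusted p = 0.951) without t0 375, where the t0 libraries lay at 0.303 to 2.78 CPM and the baseline libraries at 0 to 2.23.

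Among the other accessory and costimulatory receptors, Cd5 and Cd6, scavenger receptor family members that restrain T cell signalling, and Thy1 rose with all libraries, and Cd7 (1.16 ± 0.55 (SE), adjusted p = 0.0858), Cd27 (1.76 ± 0.83 (SE), adjusted p = 0.0844) and Icos (1.83 ± 0.86 (SE), adjusted p = 0.0835) did not pass. Cd5 ranged from 0 to 0.763 CPM (median 0.106) at baseline and from 0.331 to 7.88 CPM (median 1.14) at t0. The highest t0 libraries were t0 375 and t0 332, and t0 359 (0.331 CPM) lay within the baseline range. Its log2 fold change was 3.61 ± 0.87 (SE), adjusted p = 0.00127, for a gene that entered the test through t0 and had no value without t0 375. Cd6 (2.67 ± 0.89 (SE), adjusted p = 0.0154; 1.37 (adjusted p = 0.173) without t0 375) and Thy1 (1.35 ± 0.51 (SE), adjusted p = 0.0307; 0.48 (adjusted p = 0.378)) lost their calls, Thy1 also when baseline 343, 352 or 355 was left out. Cd28, the main costimulatory receptor, was not tested, with 155 of its 398 counts in t0 375.

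Of the 5 tested signalling genes, 4 rose with all libraries. Sh2d2a, an adaptor that binds Lck, ranged from 0.309 to 1.1 CPM (median 0.544) at baseline and from 0.935 to 22.2 CPM (median 1.84) at t0. Only t0 367 (0.935 CPM) overlapped the baseline group, lying below baseline 344 and baseline 345. Sh2d2a rose by 3.05 ± 0.73 (SE), adjusted p = 0.00121, and by 1.69 (adjusted p = 0.0243) without t0 375. Lat, the adaptor that Zap70 phosphorylates, had 0.657 to 3.02 CPM (median 1.22) at baseline and 1.19 to 21.9 CPM (median 2.54) at t0. The groups overlapped, with 4 of the 6 t0 libraries within the baseline range and t0 332 and t0 375 above it. The log2 fold change of Lat was 1.98 ± 0.69 (SE), adjusted p = 0.0205, and 0.92 (adjusted p = 0.24) without t0 375. Lck (2.19 ± 0.82 (SE), adjusted p = 0.0302) and Ptprcap, which associates with the phosphatase CD45 (2.35 ± 0.82 (SE), adjusted p = 0.0209), fell short without t0 375, at 0.73 (adjusted p = 0.427) and 1.21 (adjusted p = 0.199), and Lck also without baseline 343, 352, 355 or 356. Zap70 did not pass (1.21 ± 0.61 (SE), adjusted p = 0.105). Trat1, Ubash3a and Sh2d1a were not tested, with 75, 360 and 171 counts over the 28 libraries.

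The cytotoxic and NK genes did not move together. Nkg7, a protein of cytotoxic granules, ranged from 0.0773 to 2.67 CPM (median 0.229) at baseline and from 0.935 to 28.7 CPM (median 1.05) at t0. The 5 other t0 libraries lay at 0.935 to 2.14 CPM, all above 5 of the 6 baseline libraries (0.0773 to 0.464) and below baseline 344 (2.67). Nkg7 rose by 3.19 ± 0.97 (SE), adjusted p = 0.00882, and had 0.96 (adjusted p = 0.332) without t0 375. Without baseline 344, t0 375 and t2 339 together it was called, at 2.44 (adjusted p = 0.0013). Gzmb, a granzyme that cuts caspases, ranged from 0.928 to 4.86 CPM (median 1.2) at baseline and from 0.137 to 1.86 CPM (median 0.63) at t0. Here 5 t0 libraries (0.137 to 0.882 CPM) lay below all baseline libraries and t0 375 (1.86) above 5 of them. Its fitted log2 difference was −1.27 ± 0.64 (SE), adjusted p = 0.104, which did not pass, and −1.76 (adjusted p = 0.0355) without t0 375, a fall. Gzma, another granzyme, was at −0.34 ± 0.56 (SE), adjusted p = 0.649. Gzmk and Prf1 (perforin) were not tested, and t0 375 held 120 of the 163 Gzmk counts and 42 of the 173 Prf1 counts. Fasl, the death ligand, had 251 counts, 76 of them in t0 375.

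None of the 4 NK receptors could be tested. Ncr1, the receptor that defines NK cells, had 85 counts over the 28 libraries and stood at 0 in 10 of them, with 23 counts in t0 375 (0.949 CPM) and at most 0.337 CPM elsewhere. Klrd1, the CD94 chain, had 171 counts, with 2.14 CPM in t0 375 and 0.0519 to 0.946 CPM in the other t0 libraries. Klrk1 (NKG2D) had 381 counts and was highest in t0 375 (2.85 CPM) and t0 332 (2.097). Klrb1c (NK1.1), in contrast, was highest in baseline 356 (3.49 CPM) and baseline 344 (2.82) and lay at 0.413 to 0.821 CPM in t0.

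Of the homing genes, Cxcr3, the receptor for the interferon-induced chemokines Cxcl9 and Cxcl10, ranged from 0.155 to 1.5 CPM (median 0.358) at baseline and from 0.467 to 15.9 CPM (median 1.05) at t0. The groups overlapped, since 4 t0 libraries lay between 0.467 and 1.28 CPM and baseline 344 at 1.499. It rose by 2.87 ± 0.81 (SE), adjusted p = 0.00512, and had 1.499 (adjusted p = 0.0875) without t0 375. Cd69, an early activation and residence marker, ranged from 0 to 0.555 CPM (median 0.26) at baseline and from 0.104 to 3.47 CPM (median 1.3) at t0. One t0 library, t0 367 (0.104 CPM), lay within the baseline range. Cd69, which entered the test through t0, rose by 2.46 ± 0.81 (SE), adjusted p = 0.0141, and had 1.98 (adjusted p = 0.0507) without t0 375. Cxcr6 (1.29 ± 0.62 (SE), adjusted p = 0.0896) and Itgae, the alpha E integrin that binds epithelial E-cadherin (0.99 ± 0.59 (SE), adjusted p = 0.176), did not pass; their genes overlap Fyco1 and Gsg2 in the table.

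**Figure D4:**
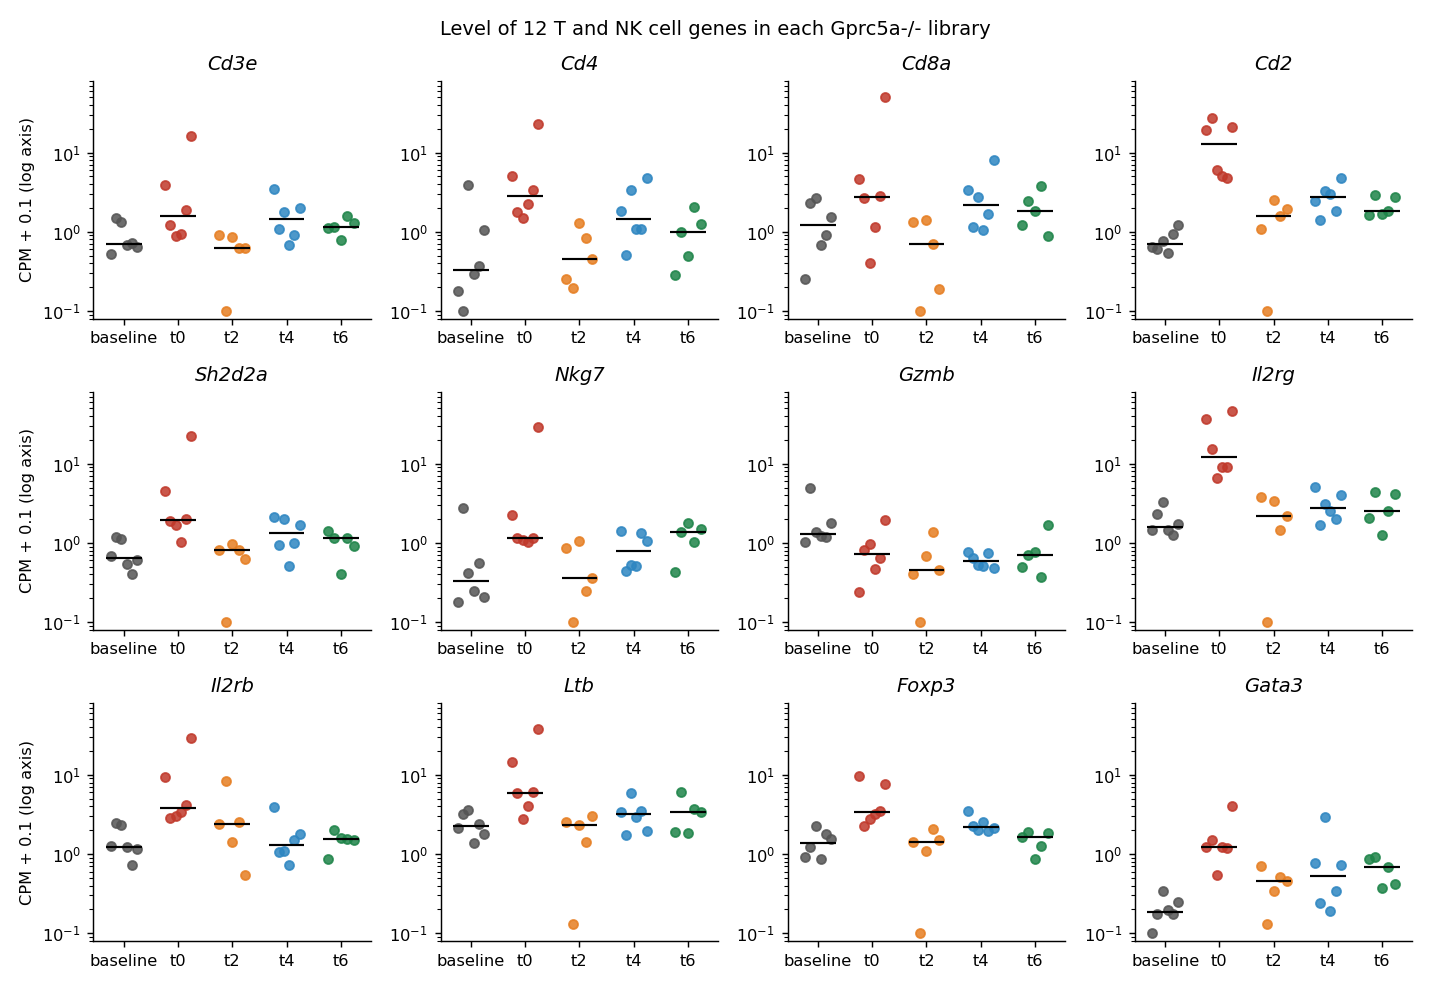
CPM + 0.1 (log axis) of 12 T and NK cell genes in each Gprc5a-/- library by group, with group medians as bars. For Cd2, Il2rg, Il2rb and Gata3 every t0 library lies above every baseline library, for Cd8a and Nkg7 a single t0 library lies far above the rest, and for Gzmb 5 of 6 t0 libraries lie below the baseline libraries.

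Promoters of genes that did and did not depend on t0 375 are shown to compare their letters. Each is 300 bases of the RefSeq GRCm38.p6 promoter table, from 250 bases before to 50 after the annotated start, on the gene's strand, and the table held promoters for 31 of the 46 genes, 36 in all. Capitals mark matches on either strand to a RUNX motif (TGTGGT or TGCGGT, or the reverse complement) or an ETS motif (CCGGAAGT, CAGGAAGT, CCGGAAAT or CAGGAAAT), the binding letters of factor families with known roles in T and NK cells. The RUNX letters were in 19 of the 36 promoters (52.8%) and in 22.4% of the 32851 promoters of the same length in the table. The ETS letters were in 13 (36.1%) and 9.79%, and the GATA letters AGATAA in 3 (8.33%) and 11.2%. A match is a description of letters and not a binding site. Il2rg, which rose with and without t0 375, is followed by Cd8a and Nkg7, whose calls were lost without that library, and by Gzmb, which fell without it.
Il2rg, chrX:101268206-101268505, minus strand: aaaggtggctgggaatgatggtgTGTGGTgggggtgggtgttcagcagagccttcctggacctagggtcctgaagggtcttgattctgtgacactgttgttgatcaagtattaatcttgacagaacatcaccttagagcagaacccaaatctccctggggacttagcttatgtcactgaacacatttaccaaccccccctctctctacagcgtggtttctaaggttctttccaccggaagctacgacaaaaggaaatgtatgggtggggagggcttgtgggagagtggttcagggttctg
Cd8a, chr6:71373177-71373476, plus strand: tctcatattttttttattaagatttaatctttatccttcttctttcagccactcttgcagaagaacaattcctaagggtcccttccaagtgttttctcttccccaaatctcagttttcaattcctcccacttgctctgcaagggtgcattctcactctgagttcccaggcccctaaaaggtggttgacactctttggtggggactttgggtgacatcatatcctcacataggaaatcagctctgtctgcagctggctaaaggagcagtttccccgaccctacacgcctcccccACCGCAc
Nkg7, chr7:43436888-43437187, plus strand: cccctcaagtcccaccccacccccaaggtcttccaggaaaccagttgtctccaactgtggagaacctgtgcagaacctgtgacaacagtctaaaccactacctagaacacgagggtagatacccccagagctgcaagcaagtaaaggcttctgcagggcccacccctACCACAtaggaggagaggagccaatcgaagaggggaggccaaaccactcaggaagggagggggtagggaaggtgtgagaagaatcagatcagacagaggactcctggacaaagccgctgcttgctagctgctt
Gzmb, chr14:56262285-56262584, minus strand: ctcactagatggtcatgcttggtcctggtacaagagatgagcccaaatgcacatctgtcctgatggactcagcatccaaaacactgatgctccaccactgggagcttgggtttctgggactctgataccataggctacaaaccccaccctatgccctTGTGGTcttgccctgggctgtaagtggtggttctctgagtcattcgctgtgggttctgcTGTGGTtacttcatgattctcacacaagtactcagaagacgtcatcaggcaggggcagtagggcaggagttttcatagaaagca
Il2rg had 1 RUNX match, Cd8a 1, Nkg7 1 and Gzmb 2, and none of the 4 had an ETS match. In the deposited table the genes themselves lay at chrX:101264387-101268206, chr6:71373427-71379171, chr7:43437138-43438246 and chr14:56258858-56262260 (mm10). The Cd8a and Nkg7 windows reach into these intervals, whereas the RefSeq starts of Il2rg and Gzmb lie upstream of them. No promoter of Cd2 or Cd4 was in the table.

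Markers of other cell types also moved at t0. The counts of called markers stand against 23.3% of all genes higher and 22.3% lower, or 21.2% higher without t0 375. All 10 general leukocyte genes rose, and their summed level was 416.7 to 1568 CPM at t0 and 207.2 to 375.6 CPM at baseline, with no overlap. The 10 B cell markers summed to 13.0 to 69.3 CPM at t0 and 2.91 to 9.36 CPM at baseline, and 3 of 6 tested rose. Most of each t0 sum was Cd22 (8.58 to 45.0 CPM at t0, 0 to 0.773 at baseline), while Cd79b and Cr2 overlapped between the groups. The 8 dendritic cell markers summed to 67.8 to 260.9 CPM at t0 and 9.86 to 36.5 CPM at baseline, and 4 of 8 rose. Most of each t0 sum was Itgax (57.8 to 202.5 CPM at t0, 5.45 to 17.8 at baseline). Ccr7 also lay apart between the groups, whereas Zbtb46 overlapped (0.779 to 3.84 CPM at t0, 2.07 to 6.11 at baseline). Of 9 tested macrophage and monocyte markers 6 rose and 1 fell, while their summed level was 4094 ± 1693 CPM at t0 and 5777 ± 1718 at baseline. None of 6 tested neutrophil markers passed, and 4 of 5 mast cell and basophil markers fell (median log2 fold change −2.88). Without t0 375, 9 leukocyte, 2 B cell and 3 dendritic cell genes rose. None of the 5 tested thymocyte markers rose with all libraries, and 1 of 4 fell without t0 375. Ptprc, the CD45 phosphatase of all leukocytes, had 520 to 3002 counts in the t0 libraries and 92 to 780 at baseline. Since Cd2, Il2rg, Ltb and Ptprcap are also made by leukocytes other than T and NK cells, the part of those cells in their levels was not tested. Outside the leukocytes, all 4 club cell markers fell, their sum being 28780 ± 5322 CPM at t0 and 83420 ± 12340 at baseline. All 4 ciliated cell markers fell as well (492 ± 290 and 1898 ± 278 CPM). Of 4 basal cell markers 3 rose (6703 ± 1805 and 1428 ± 558 CPM), and of 5 skeletal muscle markers 4 rose (54.5 ± 75.0 and 3.91 ± 3.19 CPM). Haemoglobin genes held 22.8% of the counts in t0 357, the library highest for Cd2, and 0.0181% to 0.883% in the other t0 libraries. The part of these shifts in the T and NK levels was not tested.

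Other genes of the same pathways, listed by textbook role and not members of the 46, were read from the same fit and stand against the 23.3% of all genes that were higher at t0, or 21.2% without t0 375. Of 15 tested T cell receptor signalling genes, 10 rose and none fell at t0 with all libraries, and 9 rose without t0 375. Lcp2, the adaptor SLP-76 of T cells and other blood cells, averaged 15.7 ± 9.66 CPM at t0 and 1.98 ± 1.06 at baseline (log2 fold change 2.98 ± 0.49 (SE), adjusted p = 1.92e-05). Of 8 tested NK and cytotoxic genes 6 rose, and 4 of 7 without t0 375. Slamf7, an activating receptor of NK cells and other leukocytes, rose by 2.34 ± 0.54 (SE) on the log2 scale (adjusted p = 0.00092), and Ccl5 by 3.44 ± 0.87 (SE; adjusted p = 0.0021), but Ccl5 was not called without t0 375 (1.58, adjusted p = 0.065). Of 8 tested chemokines that recruit lymphocytes, 4 rose and none fell, also without t0 375. Cxcl16, the epithelial ligand of Cxcr6, was at 105.6 ± 21.8 CPM at t0 and 43.3 ± 10.8 at baseline, and Cxcl9, a ligand of Cxcr3, at 8.41 ± 7.88 and 0.465 ± 0.553 (1.28 ± 0.23 (SE), adjusted p = 5.08e-05; 4.16 ± 0.96 (SE), adjusted p = 8.32e-04). Of 5 tested helper and innate-like genes none rose and Rora changed by −1.08 ± 0.15 (SE) on the log2 scale (adjusted p = 2.25e-06), while Bcl6 did not pass (−0.31 ± 0.15 (SE), adjusted p = 0.0842). Among 7 tested NKG2D ligands and homing partners 3 rose, among them H60c, a ligand of Klrk1, at 17.6 ± 10.01 CPM and 0.689 ± 0.145 (4.67 ± 0.53 (SE), adjusted p = 9.88e-08), and Il18, a cytokine that acts on T and NK cells (1.67 ± 0.43 (SE), adjusted p = 0.00241). Of 9 tested genes of memory, residence and exit 3 rose, including Ccr7, the lymph node homing receptor that dendritic and B cells also carry, by 4.88 ± 0.94 (SE; adjusted p = 1.36e-04), and S1pr5, a receptor for exit of NK cells into blood (2.59 ± 0.64 (SE), adjusted p = 0.00172). Without t0 375, 2 rose and 1 fell. The 3 of 9 and 2 of 9 are near the shares of all genes that were higher.

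At t2, none of the 32 tested genes differed from baseline in edgeR's test, where 19.9% of all genes tested were called, 11.2% higher and 8.73% lower. None of the 46 had t2 libraries all above or all below baseline, as 5.59% and 6.36% of all genes had. At an unadjusted p under 0.05, 1 gene was lower. DESeq2 and limma with either offset or with library weights each called 1 gene lower and none higher. Leaving out baseline 344 or t2 339 gave 1 gene higher, and leaving out t2 358 gave 1 lower. The median log2 fold change was −0.44 for the 32 genes and 0.02 for all genes. Cd3d, for example, was at 1.14, 0, 0.206, 0.0372 and 0.266 CPM in t2 334, 339, 347, 358 and 360, a group that overlapped baseline, and Foxp3 was at 1.33, 0, 0.998, 1.97 and 1.42 CPM, also within or below the baseline range. The value of 0 for both genes is that of t2 339, the library with the fewest genes above 0.

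At t4, 2 genes rose against baseline and none fell, where 19.6% of all genes were called, 10% higher and 9.56% lower. Cd2 ranged from 1.31 to 4.7 CPM (median 2.64) at t4, and all 6 libraries lay above the baseline libraries, as in 5.75% of all genes. On the log2 scale the difference was 1.97 ± 0.58 (SE), adjusted p = 0.018, and the call held when any 1 library was left out. Gata3 ranged from 0.0904 to 2.82 CPM (median 0.434), with t4 340 at 2.82 CPM and the others at 0.675 or less, and t4 336 and t4 348 lying within the baseline range. Its call (2.80 ± 0.78 (SE), adjusted p = 0.0126) was lost without t4 340, which also had 133 Rag1 counts. Gzmb, whose 6 t4 libraries (0.383 to 0.675 CPM) all lay below baseline, as in 7.27% of all genes, had −1.82 ± 0.66 (SE), adjusted p = 0.0506 and did not pass. Leaving out baseline 345 gave 4 called genes, leaving out t4 340 gave 1, and leaving out the 5 libraries with over 100 Rag1 counts gave 0. Gata3 was not tested without those 5 libraries.

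At t6, no tested gene differed from baseline, where 8.83% of all genes were called, 4.54% higher and 4.29% lower. At an unadjusted p under 0.05, 2 genes were higher; DESeq2 called 2 genes higher, limma with library weights 2 higher and 1 lower, and limma on either offset none. Cd2 was at 1.52, 2.85, 1.57, 1.74 and 2.61 CPM in t6 341, 349, 365, 366 and 368, all above the baseline libraries, with 1.57 ± 0.59 (SE), adjusted p = 0.097. Gata3 was at 0.76, 0.827, 0.277, 0.579 and 0.316 CPM, also without overlap, with 2.31 ± 0.79 (SE), adjusted p = 0.0656. Neither passed the adjusted threshold, and 4.66% of all genes tested had every t6 library above every baseline library, while 4.73% had every one below, as none of the 46 had.

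Between t0 and t2, 23 of the 32 genes were lower at t2 and none was higher, where 29.9% of all genes were called, 14.2% lower and 15.7% higher. The median log2 change was −2.58 for the 32 genes and −0.02 for all genes. The drop was largest in fitted value for Cd5 (−4.62 ± 1.01 (SE), adjusted p = 8.24e-04), followed by Cd8b1 (−4.04 ± 1.27 (SE), adjusted p = 0.0161) and Cd8a (−3.99 ± 1.10 (SE), adjusted p = 0.0068). Cd5, like Cd3d, Gata3 and Cd69 among the 23, entered the test through t0, so its value is a description. Cd8a was at 1.22, 0, 1.31, 0.594 and 0.0886 CPM at t2, overlapping t0 at t0 359 and t0 367. Cd2 was at 0.989, 0, 2.44, 1.49 and 1.86 CPM, all below the lowest t0 library, with −3.36 ± 0.64 (SE), adjusted p = 1.97e-04. Il2rg was at 3.69, 0, 3.3, 1.34 and 2.08 CPM, likewise without overlap, with −3.29 ± 0.67 (SE), adjusted p = 4.45e-04. The value of 0 for Cd8a, Cd2 and Il2rg is again that of t2 339. In all, 10 of the 46 genes had every t2 library below every t0 library, and 6.90% of all genes tested did, while the reverse held for none of the 46 and for 5.76% of all genes. Ncr1 and Eomes, among those 10, were not tested and lie outside the genes of the 6.90%. Without t0 375, 7 genes were lower (Cd3g, Cd2, Lat, Sh2d2a, Ltb, Il2rg and Foxp3), and 15 lost their calls, with log2 changes of −2.38 to −0.84. Over all genes 26.8% were then called in either direction, 14.4% of all genes being higher and the rest lower. Cd2 then had −3.20 (adjusted p = 5.81e-04) and Il2rg −2.87 (adjusted p = 0.00178). Calls of Cd27, Il7r, Cxcr3, Cxcr6 and Cd69 were also lost without t2 360 and that of Gata3 without t2 339 or t2 347, and some of these 6 also without t0 332, t0 357, t2 334 or t2 358.

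Against t0, 7 genes were lower at t4 and 10 at t6, and none was higher, where 33.4% and 38.7% of all genes were called, 17.5% and 20.5% lower and 15.9% and 18.2% higher. These comparisons and that of t0 with baseline share the t0 libraries, so their values are set side by side without a test of their likeness. At both times Cd2, Sh2d2a, Ltb, Il2rb and Il2rg were lower. Cd2 had −2.36 ± 0.57 (SE), adjusted p = 0.00183 at t4 and −2.75 ± 0.62 (SE), adjusted p = 8.67e-04 at t6. Il2rg had −2.76 ± 0.61 (SE), adjusted p = 7.78e-04 at t4 and −2.86 ± 0.66 (SE), adjusted p = 0.00107 at t6, and its t6 libraries (1.99, 4.26, 1.17, 2.44 and 4.08 CPM) all lay below t0. Il2rb had −2.42 ± 0.63 (SE), adjusted p = 0.00362 and −2.61 ± 0.68 (SE), adjusted p = 0.00316, its t6 libraries lying at 0.76, 1.9, 1.48, 1.46 and 1.41 CPM. The calls of Cd2, Il2rb and Il2rg held at both times without t0 375 and when any other single library was left out. Nkg7 and Cxcr6 at t4 (−2.89 ± 0.96 (SE), adjusted p = 0.0211; −1.70 ± 0.63 (SE), adjusted p = 0.0384) and Cd3d, Cd3e, Cd4, Cd6 and Foxp3 at t6 were the others. Of these, Foxp3 (−1.76 ± 0.57 (SE), adjusted p = 0.0161) held without t0 375 and lost its call without t0 332, and the rest lost theirs without t0 375. Sh2d2a at t4 was also lost without t4 348, and Cxcr6 without any of t4 336, 340, 348, 371 or 377. Without t0 375, 3 genes were lower at t4 and 4 at t6. Over all genes 30.3% and 35.5% were then called in either direction, 14.9% and 16.9% of all genes being higher and the rest lower. At t6, 5 genes were called without t6 341, 5 without t6 365 and 6 without t6 368.

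Over the 5 groups together, 21 of the 32 tested genes differed in the F test (65.6%), where 56.8% of all genes did, and 9 differed without t0 375. Of the 46 genes, 3 had every t4 library below every t0 library (Il2rg, Tbx21 and Eomes) and 5 had every t6 library below (Cd2, Il2rb, Il2rg, Eomes and Foxp3). Over all genes tested the shares were 8.86% and 12.1%. Tbx21 and Eomes were not tested and lie outside the genes of those shares. Among the 32 tested, Il2rg alone at t4 is below the share of all genes, and Cd2, Il2rb, Il2rg and Foxp3 at t6 are near it. None of the 46 had every t4 or every t6 library above t0, as 9.20% and 10.9% of all genes had.

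In the same lists few genes differed from baseline after t0. Over all genes, 11.2%, 10% and 4.54% were higher at t2, t4 and t6, and 8.73%, 9.56% and 4.29% were lower. Among T cell receptor signalling genes, 2 of 15 rose at t2, 1 at t4 and 1 at t6, near the shares that were higher. Nfatc2, an antigen-activated transcription factor, was at 23.2 ± 14.2 CPM against 7.24 ± 3.71 at t2 (1.68 ± 0.51 (SE), adjusted p = 0.0209) and, with a wide spread, at 31.8 ± 44.3 CPM against 7.24 ± 3.71 at t4 (2.13 ± 0.50 (SE), adjusted p = 0.00393). Prkcq, the kinase PKC-theta, was at 1.25 ± 0.769 CPM against 0.177 ± 0.151 at t6 (2.76 ± 0.79 (SE), adjusted p = 0.026). Among 8 NK and cytotoxic genes only Cd244 (2B4), a receptor of NK and some T cells, rose, at t6, with 6.18 ± 3.19 CPM against 1.42 ± 1.56 (2.12 ± 0.52 (SE), adjusted p = 0.00914). Ccl20, the epithelial ligand of Ccr6, was the 1 chemokine that fell at t6, with 1.55 ± 0.741 CPM against 13.6 ± 8.73 (−3.13 ± 0.90 (SE), adjusted p = 0.0285). Rora, which is also made in epithelium, was lower at all times, with −0.51 ± 0.16 (SE), adjusted p = 0.0387 at t6. Bcl6 also fell at t4. H60c rose against baseline at t2, t4 and t6 as well, and Ccr7 rose at t4. Against t0, Cxcl16 fell at t4 (−0.90 ± 0.23 (SE), adjusted p = 0.00265) and t6 (−1.09 ± 0.24 (SE), adjusted p = 7.55e-04).

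The wild-type libraries were made and processed separately, so their levels are set beside the others with no test, as CPM of library totals. The 46 genes summed to 18.9, 21.4, 23.5, 27.4 and 36.2 CPM in WT 295, 454, 448, 450 and 452 and to 871.4 CPM in WT 289. The Gprc5a-/- baseline libraries lay at 24.3 to 87.0 CPM on the same scale. WT 289 was the highest WT library for 40 of the 46 genes and held 6326 estimated counts of Rag1, 311 of Rag2 and 1249 of Dntt, against 0 to 65, 0 to 4 and 0 to 29 in the other 5. WT 295 had 30 of the 46 genes at 0.

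The libraries t0 375 and WT 289 differed in which T and NK genes were high. The receptor and coreceptor genes were high in both: Cd3e was at 18.3 CPM in t0 375 and 37.2 in WT 289, Cd4 at 25.7 and 78.1, and Cd8a at 57.1 and 81.4. Rag1 was at 48.8 CPM in t0 375 and 362 in WT 289. Other genes differed in level. Nkg7 was at 32.5 CPM in t0 375 and 0.572 in WT 289, Cxcr3 at 18 and 0.0572, Eomes at 6.73 and 0.229, Gzmk at 5.61 and 0.114, and Il2rb at 33.1 and 3.6. Foxp3 was at 8.65 and 0.339 CPM. Gzma (3.23 and 2.12 CPM), Gzmb (2.103 and 1.09), Prf1 (1.96 and 0.858) and Cd69 (3.93 and 4.29) lay closer together. With 1 library on each side this describes those libraries only.

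**Figure D5:**
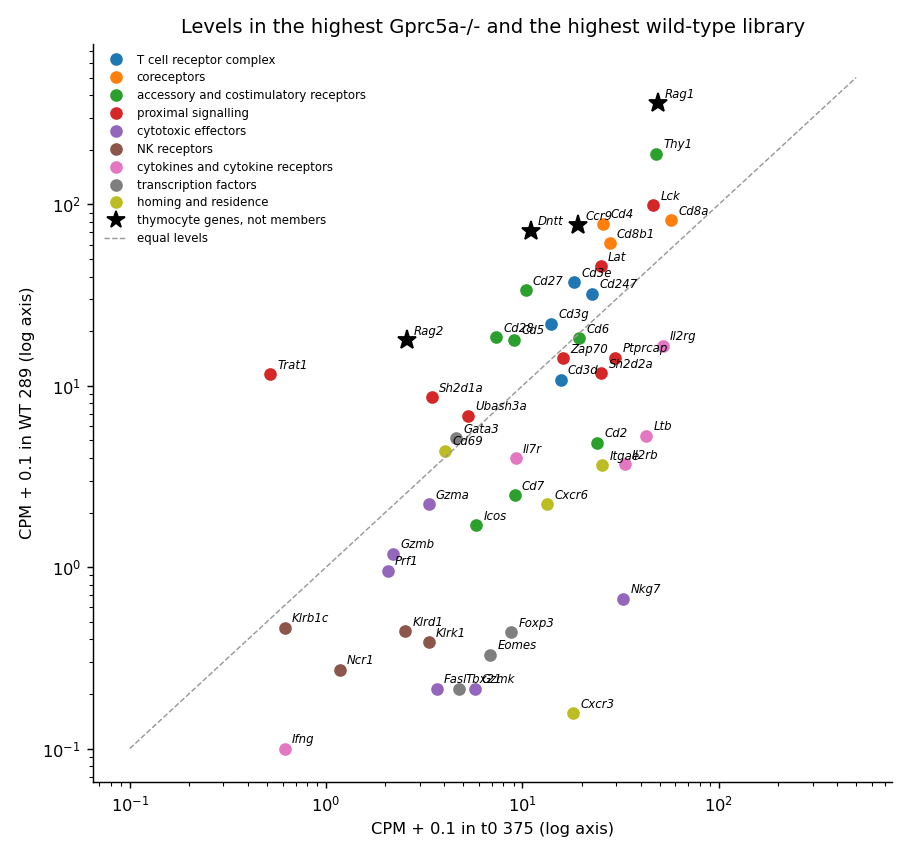
CPM of library totals + 0.1 in t0 375 (x, log axis) and in WT 289 (y, log axis) for the 46 T and NK cell genes, coloured by role, and for the thymocyte genes Rag1, Rag2, Dntt and Ccr9 (stars); the broken line marks equal levels. The thymocyte genes, Thy1, Lck, Cd4 and Cd8b1 lie above the line, and Nkg7, Cxcr3, Eomes, Gzmk and Foxp3 lie far below it.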

How the data were processed

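The authors deposited one table for the Gprc5a-/- mice whose name refers to RPKM although it holds estimated counts, since 76.3% of nonzero entries lay within 0.01 of a whole number and column totals differed. Per the submitters' processing notes, STAR 2.4.1d, Bowtie2 2.1.0, Partek and the mm10 build were used, and their roles are not given in the sources used here. Per the labels, poly-A RNA (RIN 7 or above) was sequenced on an Ion Proton. The wild-type files hold expected counts and TPM, deposited by the authors with RSEM 1.3.1 and STAR 2.7.0f named in the notes, and no replicates were pooled. The strand setting of the counting is not given, so overlapping genes (Foxp3, Cxcr6, Cd27 and Itgae among the 46) may share reads.

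Counts were rounded, and the 14847 genes that reached 1 CPM in 5 or more of 28 libraries were kept. edgeR 4.0.16 (TMM, robust quasi-likelihood, all 5 groups in one fit) gave log2 fold changes with standard errors and Benjamini-Hochberg adjusted p-values, with 0.05 as the threshold. A group overlaps another unless all its libraries lie on one side. The p-values judge differences between group means against the spread between separate mice. Alternatives used DESeq2 1.42.0, limma 3.58.1, other filters, scalings, sex (read from Xist and Y-linked counts) as a covariate and left-out libraries. The fit was tested on simulated data. The members and gene lists were chosen with earlier results of these data known. Values per library were given for the 2 genes of each role with the smallest F test p and for Cd3g, Cd8b1, Ncr1, Klrd1, Ifng and others fixed by name, and for each pathway list the 2 genes with the smallest p. Leaving out the 5 libraries with over 100 Rag1 counts, or 3 libraries together, was chosen after seeing the data. One gene that this rule names is not reported here.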

Additional observations from a re-analysis of the deposited data

Results flagged for a closer look

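In 42 of the 155 groups of libraries examined, 1 library lay far from the others (Dixon's criterion, which chance meets in about 1 group in 20). Of these, 20 were t0 375, where the summed level was 654.6 CPM over all 46 genes, 61.9 over the T cell receptor complex, 97.5 over the coreceptors, 116.7 over accessory receptors, 133.0 over proximal signalling, 43.2 over cytotoxic effectors and 53.4 over homing genes. Single genes that stood apart in t0 375 were Cd3d (13.7 CPM), Cd3e (16.1), Cd3g (12.2), Cd4 (22.7), Cd8a (50.4), Cd8b1 (24.4), Lat (22.0), Sh2d2a (22.2), Nkg7 (28.7), Ncr1 (0.949), Il2rb (29.2), Gata3 (3.96) and Cxcr3 (15.9).

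Baseline 344 stood above its group for the summed cytotoxic effectors (20.3 CPM) and homing genes (17.6), for Gzmb (4.86) and for Nkg7 (2.67). Baseline 345 did so for Cd4 (3.75 CPM), Cd5 (0.763) and Ncr1 (0.208), and baseline 356 was the 1 baseline library above 0 that set Ifng apart (0.0364, a single count).

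At t2, the library t2 339 was high for the summed cytotoxic effectors (9.03 CPM) and Il2rb (8.29) and low for the summed accessory receptors (6.09), t2 334 was high for Cd3d (1.14) and t2 347 for Ncr1 (0.0344, a single count). At t4, the library t4 377 was high for the coreceptors (17.4 CPM), Cd8a (8.00) and Cd8b1 (4.75), t4 335 for Klrd1 (0.491), Il2rb (3.87) and Foxp3 (3.41), and t4 340 for Gata3 (2.82). At t6, t6 366 was high for Cxcr3 (1.49 CPM). Among the wild-type libraries WT 289 stood apart with a summed 871.4 CPM of library totals.

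The change from baseline differed between t0 and the later times, by the test of the later time against t0, for 23 genes at t2, 7 at t4 and 10 at t6.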

How the results depend on the processing

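Against baseline, the number of the 46 genes called at t0 was 20 and ranged from 8 to 22 when 1 library was left out. It was 8 without the 5 libraries with over 100 Rag1 counts and 15 without baseline 344, t0 375 and t2 339, 14 of them higher. At t2 it was 0 and ranged from 0 to 1, with 1 by DESeq2, 1 by limma on log2(CPM + 1), 1 on log2(CPM + 0.1), 1 by limma with library weights, 2 with a filter of 10 counts over all libraries, and 1 without t0 357, t0 359, t2 339, t4 371, t6 349 and t6 365. At t4 it was 2 and ranged from 1 to 4, with 7 by limma with weights and 6 without baseline 344, t0 375 and t2 339. It was 0 without the Rag1 libraries, where Gata3 was not tested. At t6 it was 0 and was 0 whichever library was left out, with 2 by DESeq2, 3 by limma with weights, 1 from the 2 groups alone, 1 without those 6 libraries and 3 without those 3.

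Against t0, the number at t2 was 23 and ranged from 7 to 24, with 12 by limma with weights, 8 from the 2 groups alone, 9 without the 3 libraries and 6 without the Rag1 libraries. At t4 it was 7 and ranged from 3 to 9, with 3 by limma on log2(CPM + 0.1), 13 without the 6 libraries, 4 without the 3 and 2 without the Rag1 libraries. At t6 it was 10 and ranged from 4 to 15, with 6, 5 and 2 by limma on log2(CPM + 0.1), without the 3 and without the Rag1 libraries. The F test gave 21, from 9 to 25, with 12 without the 3 and 4 without the Rag1 libraries. The cause of these shifts was not tested. Of the values for named genes under the alternatives, 2645 kept their side of the threshold, 132 lost and 82 gained a call, and none of them reversed a called direction.

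No paired analysis was possible because each library came from a separate mouse with its own animal number. Levels near 1 CPM limit these results: 14 genes could not be tested, and in most libraries the Cd3 and Cd8 genes stand near or below that level.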
